A study of Mus musculus with 4 samples.

Results

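The genes described here are mouse transcripts that carry a Gm number in place of a gene name. They are the rows whose symbol is Gm followed by digits only and whose deposited value averaged at least 7.3 over the 4 libraries, on a log2 scale whose lowest value is 6.508. Of the 16857 genes in the table, 633 are Gm-numbered models, and 112 of these reached the mean of 7.3. The other 521 lay below it. The models were thus chosen by their mean level over all 4 libraries, so that level is a description and was not tested.

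RNA was sequenced from 4 mouse adenoma colonoid lines, cultured epithelium of colon tumours. All the lines are named Apcmin, after an allele of the tumour suppressor Apc, and their genotype is given as Apcnull. The 2 G0 lines, numbers 75 and 179, are also LSL-mTERT-het, and the 2 G2 lines, numbers 157 and 236, are LSL-mTERT-homo. The series sets colonoids with low and with high chromosomal instability side by side, but the labels do not say which of G0 and G2 is which. Age, passage and treatment are not given in the labels, and each line gave 1 library. The labels do not say whether the lines came from separate mice, so p-values measure only the spread between these lines. Generation, genotype and line cannot be told apart as sources of a difference between the groups.

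The mouse nomenclature committee gives a Gm number to a gene model that a prediction program or a cDNA supports but that has no established function. Such models are a mixed class. Some are long non-coding RNAs, some are pseudogenes of named genes, some span 2 neighbouring genes in a read-through transcript, and many are recent tandem copies, for example of zinc finger genes with a KRAB domain, a domain known for recruiting repressors to transposable elements. Reads from near-identical copies can be divided among them in several ways, so the level of a copied model is less certain than that of a unique one.

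Sequencing gave 16545429 to 17901744 counts per library over 14119 to 14215 genes with a count. Colon epithelial markers summed to 117517.9 and 159227.5 normalized counts in the G0 lines and to 158980.2 and 161976.0 in the G2 lines, with all 12 markers in the table. The sum hides unequal members: by the limma test used below, Cdx2 and Vil1 fell in G2 (log2 fold changes -3.62 and -2.24) and Car1 and Cdh1 rose (4.46 and 0.85). Markers of other cells were scarce. Fibroblast markers summed to 4.1 to 10.8 over the 4 libraries with Dcn and Pdgfra at 0, and leukocyte markers to 1.0 and 1.0 in G0 and 23.2 and 28.3 in G2 with Ptprc, the pan-leukocyte marker, at 0. Endothelial markers summed to 3.9 and 4.1 in G0 and to 48.4 and 46.9 in G2, nearly all of it Tek at 2.9, 4.1, 47.4 and 45.0, with Pecam1 and Cdh5 at 0.0 to 2.0. Their part in the results was not tested. Tert, the telomerase gene that the genotype names, stood at 93.3 and 97.5 in G0 and at 0.0 and 1.0 in G2. Genes of the Y chromosome summed to 0.0 in both G0 lines and to 1667.0 and 1630.4 in the G2 lines, so presence of the Y coincides with the group and their effects cannot be told apart. In bulk RNA, fewer cells that express a gene and less of its RNA per cell cannot be told apart either.

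Levels below are normalized counts, that is counts divided by the library's size factor and not by gene length, so they compare libraries and not genes. Values follow the order G0 line 75, G0 line 179, G2 line 157 and G2 line 236. A gene rose or fell where limma gave an adjusted p under 0.05 between G2 and G0, adjusted over all 13981 genes tested. A fold is the ratio of the 2 group means of normalized counts. The log2 fold change is G2 minus G0 of the group means of log2(normalized count + 1). The added 1 shrinks the change of low genes, but a line near 0 beside a high partner can widen it. Gm21596, for example, had a fold of 1.94 and a log2 fold change of 3.99.

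All 112 models entered the test. Between the groups, 40 changed, which is 35.7% of the models against 10.5% of all genes tested. In G2, 23 rose and 17 fell, or 20.5% and 15.2% of the models, where 5.93% of all genes rose and 4.56% fell. Among all genes with a mean of at least 7.3, 11.1% of 11133 changed. The share of Gm models that changed was thus larger than that of all genes above the same cut. Levels above the cut were not matched, and the 40 include 4 identical rows. This is a description, and no test is given because the models were chosen with results known. Groups did not overlap for 86 models, or 76.8%, where 57.8% of all genes tested had groups that did not overlap. The calls needed all 4 libraries. Without any single library no gene of the table passed, and 40, 46, 45 and 47 models had an unadjusted limma p under 0.05 (62 models, or 55.4%, with all libraries, and 26.8% of all genes) without G0 line 75, G0 line 179, G2 line 157 and G2 line 236, where 1 group then held a lone line assumed to vary like the other group. Of the 13981 genes tested, 3221, 2376, 2468 and 2465 had such a p in the same order.

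The mean level has to be read beside these counts, since a model can reach 7.3 through 1 group alone. Both group means were at least 7.3 for 86 models, and 22 of these changed. In 11 models the G2 mean alone reached it, with 6 called, and in 15 the G0 mean alone did, with 12 called. Models that reach the cut through 1 group are favoured to differ between the groups. All genes were not split in this way, and 11.1% of those with a mean of at least 7.3 changed. Among the Gm models below 7.3, 223 could be tested and 12 changed, or 5.38%, with 1 higher and 11 lower in G2, or 0.448% and 4.93%. The median log2 fold change of the 112 models was 0.16, beside 0.01 over all genes tested.

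Sizes of change are given for models that passed the test, which favours large changes. The same counts over all genes were not made. Of the models that rose, 22 were at least 2-fold, 14 at least 4-fold and 6 at least 16-fold higher in G2. Of those that fell, all 17 were at least 2-fold, 16 at least 4-fold and 3 at least 16-fold lower. The models together held 0.593% and 0.589% of the counts in the G0 lines and 1.049% and 0.873% in the G2 lines. Gm46894 alone made 37.8% to 48.7% of the models' counts.

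**Figure D1:**
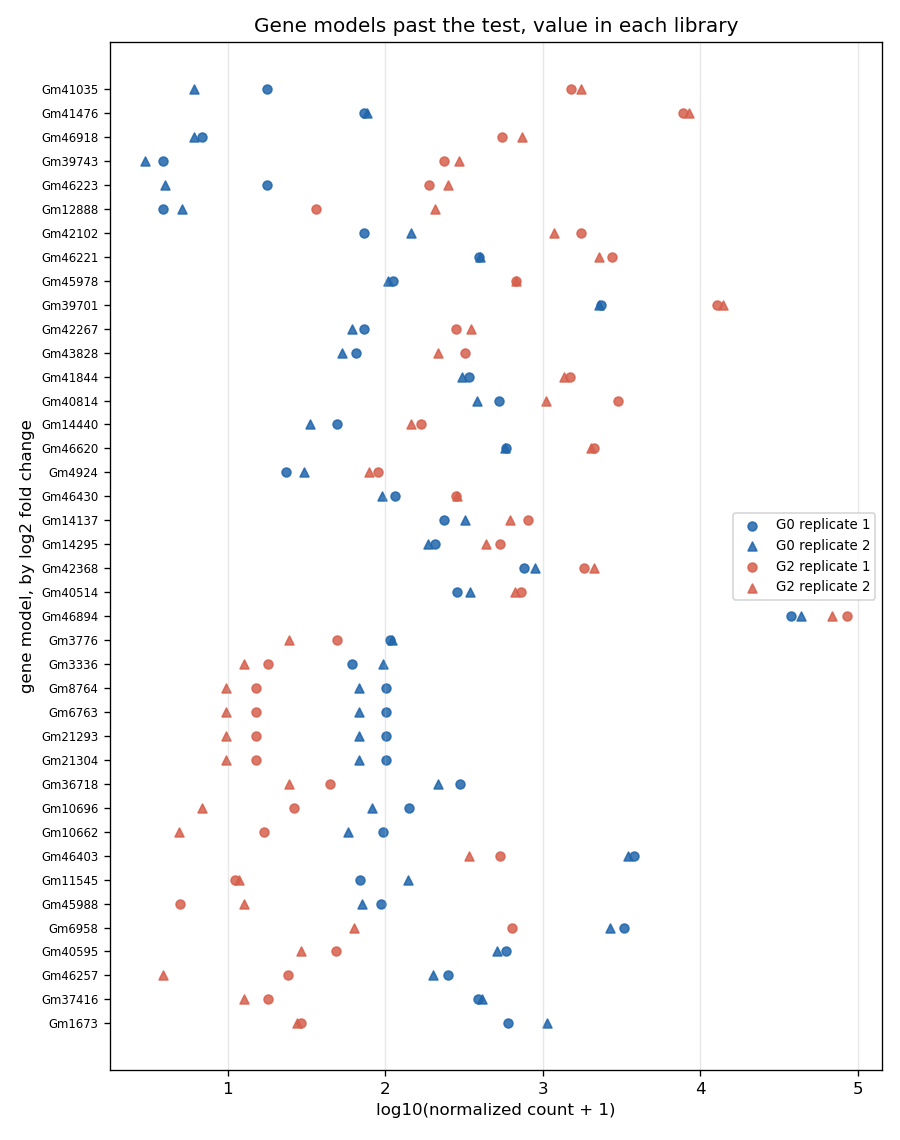
Normalized count on a log10(value + 1) axis for the 40 gene models that changed, ordered by log2 fold change, with 1 point per library (blue G0, red G2; circles replicate 1, triangles replicate 2). In every row the points of a group stay on their own side, and the group means differ by between 1.90-fold for Gm46894 and 150-fold for Gm41035.

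The annotation knew most of the models. RefSeq's mouse table on GRCm38.p6, the assembly known as mm10, held 85 under their symbol and 1 under a newer name, and GENCODE M21 gave 4 more, so that 90 of 112 had a position. The other 22 had none, among them Gm38495, which RefSeq lists as a synonym of Aak1. Of these 22, 8 rose and 2 fell. Among 49 models with a curated RefSeq transcript 5 rose and 11 fell, and among 28 with predicted transcripts only 6 rose and 4 fell. By RefSeq biotype, 71 were protein coding, with 11 higher and 14 lower. Another 8 were pseudogenes, with 3 higher and none lower, and 6 were long non-coding RNAs, with 1 lower. GENCODE lists some of the 71 otherwise. Among them, Gm46430, which rose, is a long non-coding RNA there and Gm11545, which fell, an unprocessed pseudogene. For 63 models the transcript could be compared with all others in stretches of 50 bases. In 21 of them at least 80% of the stretches also occur in another gene, and 8 of these changed. In 18 of them under 5% do, and 6 of these changed. The 8 include 4 identical rows, and these counts stand beside 35.7% of all the models and 10.5% of all genes tested.

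Several of the widest differences lay in models without a known position. Gm41476 had 72.7, 75.2, 7711.0 and 8426.7 normalized counts. Both G2 lines lay far above both G0 lines and close to each other, with a mean 109-fold higher (log2 fold change 6.75, SE 0.14, limma adjusted p = 7.8e-06). Gm41035 read 16.7, 5.1, 1510.7 and 1755.5. It was high in both G2 lines and low in both G0 lines, 150-fold apart (log2 fold change 7.3, limma adjusted p = 0.000475), with 322-fold without G0 line 75 and 97.8-fold without G0 line 179. Gm46918 read 5.9, 5.1, 552.7 and 739.0. It was close to absent in G0 and rose 118-fold (limma adjusted p = 0.000165).

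Other models without a position rose from a clear level in G0. Gm42102 went from 72.7 and 145.3 to 1747.7 and 1178.8, a 13.4-fold rise (limma adjusted p = 0.00151). Gm46221 read 389.8, 397.2, 2760.3 and 2274.6, a 6.40-fold rise (limma adjusted p = 0.000315). The G2 lines of both differed less from each other than from either G0 line. Gm46620 had 579.3, 572.9, 2109.8 and 2033.1, with lines of a group nearly alike and a 3.60-fold rise (limma adjusted p = 0.000517). Gm42368 rose 2.39-fold, from 760.0 and 890.9 to 1830.4 and 2118.2 (limma adjusted p = 0.00433).

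Gm46894 carried the greatest number of counts among the models. Its values were 37791.4, 43361.4, 85207.7 and 68575.7, a 1.90-fold rise (log2 fold change 0.92, SE 0.22, limma adjusted p = 0.0432). The groups did not overlap, but the G2 lines differed by more than the G0 lines. The limma adjusted p was 0.0513 with a pseudocount of 5 and 0.0551 after median centring. No entry for Gm46894 stands in the tables used here, so neither its position nor its biotype can be given.

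The 2 models without a position that fell were Gm46403 and Gm46257. Gm46403 read 3816.7, 3479.1, 532.5 and 337.2, an 8.39-fold drop (log2 fold change -3.10, limma adjusted p = 0.000517). Both G0 lines were high. Gm46257 read 247.4, 200.1, 23.2 and 2.9, a 17.1-fold drop (limma adjusted p = 0.0145). Its 2 G2 lines were far apart, so the drop was 76.3-fold without G2 line 157 and 9.65-fold without G2 line 236.

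Gm39701 lies at chr1:170945108-170949763 on the plus strand and has only predicted transcripts. Its values were 2356.6, 2284.5, 12801.8 and 13951.3, a 5.76-fold rise (log2 fold change 2.53, SE 0.13, limma adjusted p = 0.000241). Both named genes beside it, Fcrla at 12.9 kb and Fcgr2b, the inhibitory IgG Fc receptor, at 10.8 kb, have no row in the table. Gm45978 at chr7:29619477-29622580 read 111.0, 102.6, 676.7 and 673.5, a 6.32-fold rise (limma adjusted p = 0.000508). Of its neighbours, Sipa1l3 had a log2 fold change of 0.31 (limma adjusted p = 0.226), and Catsperg2, a gene of the sperm calcium channel complex, has no row.

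Gm41844 at chr19:38379292-38381215 read 336.8, 307.8, 1486.5 and 1362.6, a 4.42-fold rise (limma adjusted p = 0.000517). Slc35g1, a membrane transporter gene 14.8 kb away, had a log2 fold change of 0.65 (limma adjusted p = 0.0729). Gm40514 on chromosome 9 read 284.8, 344.4, 724.1 and 664.7, a 2.21-fold rise (limma adjusted p = 0.00956). In both models the lines of a group lay close together and the groups apart.

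Gm46430, protein coding in RefSeq and a long non-coding RNA in GENCODE, lies on chromosome 13 with Zfp825 and Erap1 beside it. It read 114.9, 94.5, 279.4 and 282.5, a 2.68-fold rise (limma adjusted p = 0.0103). Gm4924, on chromosome 10, read 22.6, 29.5, 88.7 and 78.2, a 3.21-fold rise (limma adjusted p = 0.0251). The groups of neither overlapped.

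Gm12888 on chromosome 4 rested on few counts in G0. Its values were 2.9, 4.1, 35.3 and 207.2, a 34.6-fold rise with a 95% exact counting interval of 16.8 to 88.2 that covers counting error only (limma adjusted p = 0.0194). On the deposited values as they stand the limma adjusted p was 0.0664. G2 line 236 was far above G2 line 157, and the rise was 59.1-fold without line 157 and 10.1-fold without line 236.

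The 3 models that changed among those RefSeq lists as pseudogenes all rose. Pseudogenes are copies of genes that have lost the capacity to make the parent's protein, yet many are transcribed. Gm39743, at chr1:191933890-191941862, read 2.9, 2.0, 235.0 and 291.3. It was nearly without counts in G0 and 106-fold higher in G2, with an exact counting interval of 45.0 to 326 (log2 fold change 6.25, limma adjusted p = 0.00036). Its neighbour Slc30a1, the zinc exporter of the cell membrane, had a log2 fold change of 0.02, and Rd3, a regulator of guanylate cyclase in photoreceptors, read 0.0, 3.0, 24.2 and 11.7 (limma adjusted p = 0.0569).

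Gm42267 at chr4:32791263-32792684 read 72.7, 60.9, 279.4 and 349.0, a 4.70-fold rise (limma adjusted p = 0.00325). Gm43828 at chr5:24215691-24221899 read 63.8, 51.8, 318.7 and 214.1, a 4.61-fold rise (limma adjusted p = 0.00597). In both, the lowest G2 line was well above the highest G0 line. The named genes beside them, Mdn1 and Lyrm2, and Nupl2 and Kcnh2, did not pass the test, with log2 fold changes of 0.36, 0.46, 0.17 and -0.62. Gm46223, a processed pseudogene of GENCODE on chromosome 10, shares 83.7% of its 50-base stretches with other genes, among them the GENCODE model named Gm37416. Its normalized counts of 16.7, 3.0, 187.6 and 249.3 gave a 22.1-fold rise (limma adjusted p = 0.00748), with 71.7-fold without G0 line 75 and 13.1-fold without G0 line 179.

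The row named Gm37416 went the other way. RefSeq gives Gm37416 as a long non-coding RNA at chr2:16023412-16027606 on the minus strand. It lies inside Malrd1, a gene of the plus strand known for its part in bile acid metabolism. GENCODE's model of that symbol, which shares stretches with Gm46223, was not matched to this position. Which of these models the row counts is not known. Gm37416 read 388.8, 409.4, 17.1 and 11.7, a 27.6-fold drop (log2 fold change -4.72, SE 0.30, limma adjusted p = 0.000464). Both G0 lines were high and alike. Malrd1 read 0.0, 0.0, 10.1 and 0.0 (limma adjusted p = 0.4). Whether counting used strand is not given in the sources used here. Without strand, reads of overlapping genes on opposite strands cannot be told apart.

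The other models that RefSeq lists as long non-coding RNAs did not pass. Gm46735 and Gm14149 had log2 fold changes of 0.33 and -0.20 (limma adjusted p = 0.539 and 0.91). Gm43305, on chromosome 14, read 14538.0, 17490.0, 10277.6 and 4613.6, so both G2 lines were below both G0 lines and far apart from each other (log2 fold change -1.21, limma adjusted p = 0.0728). Gm38947 read 984.8, 469.3, 387.3 and 211.1 (limma adjusted p = 0.1). Gm20684, which starts 0.1 kb from Pcsk6 and on the other strand, read 133.5, 207.2, 105.9 and 69.4 (limma adjusted p = 0.123). Pcsk6, a protease that activates growth factors of the TGF-beta family, fell slightly, from a mean of 3897.85 to 2683.17 (log2 fold change -0.54, limma adjusted p = 0.0387).

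Gm1673 fell together with a named neighbour. It is the mouse counterpart of human NICOL1, a small secreted protein, and lies at chr5:33983433-33985009 on the plus strand, with 0.0% of its 50-base stretches found in other genes. Its values were 596.0, 1068.6, 28.2 and 26.4. Both G0 lines were high, both G2 lines low, and the drop was 30.5-fold (log2 fold change -4.82, SE 0.32, limma adjusted p = 0.000475). Nat8l, the enzyme that makes N-acetylaspartate, follows 11 kb away and read 900.4, 1045.3, 0.0 and 2.0 (log2 fold change -9.14, limma adjusted p = 0.000322). On the other side Nelfa, a subunit of the negative elongation factor, had a log2 fold change of -0.53 (limma adjusted p = 0.0643).

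Gm40595 and Gm6958 are predicted coding models that fell while the genes beside them did not pass. Gm40595 at chr10:5721485-5724198 read 586.2, 514.0, 47.4 and 28.3, a 14.5-fold drop (limma adjusted p = 0.000719). Fbxo5, an inhibitor of the anaphase-promoting complex, lies 75.0 kb away with a log2 fold change of -0.37 (limma adjusted p = 0.275). Gm6958 at chr16:55961315-55965048 read 3259.9, 2657.3, 640.4 and 62.6, an 8.42-fold drop (log2 fold change -3.87, SE 0.91, limma adjusted p = 0.0415). Its 2 G2 lines differed by a larger factor than its G0 lines, so the drop was 47.3-fold without G2 line 157 and 4.62-fold without G2 line 236. Rpl24, a protein of the large ribosomal subunit 1.2 kb away, read 11337.0, 13369.9, 10404.6 and 11815.5 (limma adjusted p = 0.585).

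Gm45988 on chromosome 7 read 92.3, 70.1, 4.0 and 11.7, a 10.3-fold drop that was 20.1-fold without G2 line 236 (limma adjusted p = 0.0108). Gm11545 on chromosome 11, protein coding in RefSeq and an unprocessed pseudogene in GENCODE, read 67.8, 139.2, 10.1 and 10.8, a 9.93-fold drop that was 6.50-fold without G0 line 179 (limma adjusted p = 0.00766). No stretch of Gm11545 occurs in another gene, and both G0 lines were above both G2 lines. Gm3336, also unique in sequence, lies on chromosome 8 between Iqcn at 0.8 kb and Pde4c, a cAMP phosphodiesterase, at 1.2 kb. It read 60.9, 95.5, 17.1 and 11.7, a 5.42-fold drop (limma adjusted p = 0.0154), while Iqcn and Pde4c had adjusted p of 0.143 and 0.22 in the limma fit. Gm36718 on chromosome 18 read 298.5, 216.4, 43.4 and 23.5, a 7.71-fold drop (limma adjusted p = 0.00478).

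The other models that fell share sequence with other genes. Gm3776 shares 92.5% of its stretches, chiefly with the glutathione S-transferase genes Gsta1 and Gsta2, whose enzymes detoxify electrophiles. It read 106.0, 109.7, 48.4 and 23.5, a 3.0-fold drop that was 4.6-fold without G2 line 157 (limma adjusted p = 0.0449). Gsta1 read 140.4, 108.7, 51.4 and 9.8 (log2 fold change -2.39, limma adjusted p = 0.0743), and reads of the pair cannot be told apart with certainty. Gm10696 is now named Spopfm2, a relative of the ubiquitin ligase adaptor Spop, and shares 42.9% of its stretches. It read 140.4, 81.3, 25.2 and 5.9, a 7.13-fold drop that was 18.9-fold without G2 line 157 and 4.40-fold without G2 line 236 (limma adjusted p = 0.0324).

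Gm10662, on chromosome 7, shares 100% of its stretches with other Gm models. It read 95.2, 56.9, 16.1 and 3.9, a 7.59-fold drop (limma adjusted p = 0.0303), with 19.5-fold without G2 line 157 and 4.71-fold without G2 line 236. The groups of Gm10662 did not overlap.

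A tandem of copies on chromosome 10 gave the same row 4 times. Gm21293, Gm6763, Gm8764 and Gm21304 lie on the plus strand between positions 104142987 and 104170954, and 97.0% to 100% of their stretches occur in other genes, each other among them. Each row held 100.2, 67.0, 14.1 and 8.8, a 7.3-fold drop (log2 fold change -2.77, limma adjusted p = 0.00933). The rows are identical and are read as 1 measurement, and counting them once leaves 14 models that fell. The promoter is shown to let the likeness of the copies be seen: RefSeq's 250 bases before the start are identical for the 3 copies that have an entry, here read at chr10:104142737-104142986 on the plus strand of GRCm38.p6, with no base in capitals because none differs.
Gm21293: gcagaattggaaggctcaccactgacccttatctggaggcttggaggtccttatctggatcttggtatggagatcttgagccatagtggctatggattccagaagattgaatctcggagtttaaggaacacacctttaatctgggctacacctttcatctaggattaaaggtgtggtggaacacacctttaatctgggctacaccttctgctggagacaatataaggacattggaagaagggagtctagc

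Models on the opposite strand of a named gene rose in 2 cases where that gene did not pass. Gm14137 on chromosome 2 has no stretch in common with other genes and overlaps Dnajc17, a co-chaperone. It read 233.7, 319.0, 807.8 and 619.7, a 2.58-fold rise (limma adjusted p = 0.0119), where Dnajc17 read 91.3, 134.1, 85.7 and 136.8 (limma adjusted p = 0.963). Gm40814 on chromosome 11 overlaps Pkd1l1, known for its role in left-right patterning. It read 524.3, 381.9, 3003.3 and 1049.8, a 4.47-fold rise that was 2.32-fold without G2 line 157 (limma adjusted p = 0.0359). Pkd1l1 read 9.8, 5.1, 7.1 and 14.7 (limma adjusted p = 0.655).

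**Figure D2:**
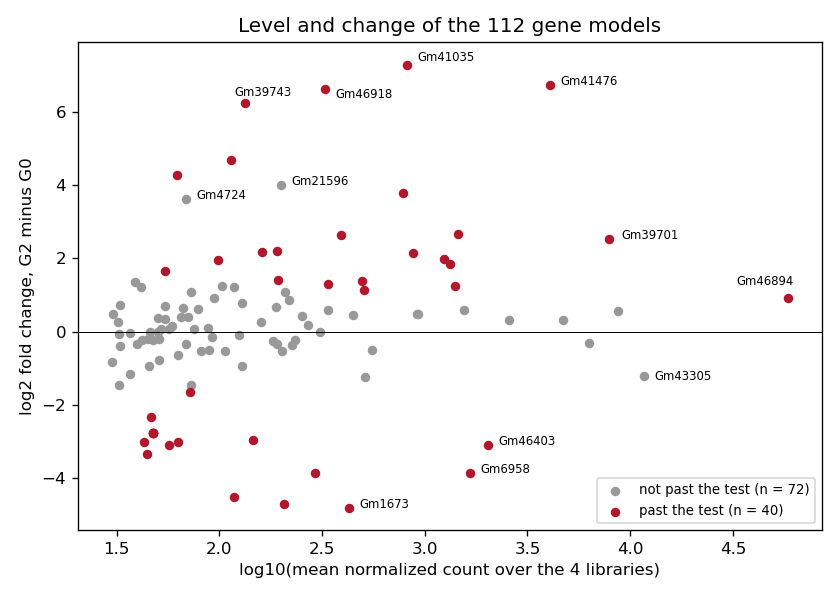
Log2 fold change (G2 minus G0) against the log10 of the mean normalized count over the 4 libraries for the 112 gene models, with 1 point per model, red for the 40 that changed and grey for the 72 that did not pass. Changed models are found from the low to the high end of the axis, Gm21596 and Gm4724 lie high without passing, and Gm46894 stands alone at the right with a log2 fold change of 0.92.

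The models also fall into runs along the chromosomes, defined here as at least 3 models with gaps of at most 2 Mb. Besides the runs on chromosomes 2 and 12 described below, the tandem on chromosome 10 is a run. So are 3 models on chromosome 5, of which 1 rose, with a median log2 fold change of -0.54. The run at chr2:175185165-177957386 holds 10 models within a region of zinc finger genes that includes 6 tested genes named Zfp. Of its 10 models, 9 had a log2 fold change above 0 and groups that did not overlap, the median was 1.15, and 2 rose. Over all genes tested, groups did not overlap for 57.8% and 5.93% rose. Of the 10, 7 share at least 80% of their stretches with other genes, so their values are not separate readings. Gm14295 read 207.2, 184.9, 532.5 and 435.0, a 2.47-fold rise (log2 fold change 1.29, SE 0.20, limma adjusted p = 0.00934). Gm14440 read 48.1, 32.5, 168.4 and 143.7, a 3.87-fold rise (log2 fold change 1.95, SE 0.31, limma adjusted p = 0.0112). In both, the 2 lines of a group were closer to each other than to the other group.

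Among the 10 other genes tested in the stretch, 2 rose. Zfp970, a zinc finger gene, read 267.1, 209.3, 584.9 and 481.9 (log2 fold change 1.16, limma adjusted p = 0.0163). Gm14434, whose mean lies below 7.3, read 0.0, 0.0, 114.0 and 74.3, at least 31.4-fold higher in G2 against a floor of 3 counts per library (limma adjusted p = 0.000832). Several rows of this region hold a 0 in 1 line beside a clear value in its partner: Gm4724 read 0.0, 70.1, 111.9 and 92.9, and Zfp966 read 57.9, 0.0, 230.9 and 92.9. Gm4724 shares 99.8% of its stretches with others and Gm14440 shares 100%, so the division of reads among the copies is uncertain.

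The promoters of this run are shown because models that rose there carry nearly the same letters as some other genes of the run. Each is the 250 bases before the start used by RefSeq's promoter table, 5′ to 3′ on the gene's strand of GRCm38.p6. That start lies inside the annotated span of Gm14295 and of Gm14326, so the stretch of Gm14295 is within the span and that of Gm14326 partly so. In the first pair, capitals mark the bases of Gm14295 (chr2:176798350-176798599, plus strand) and Zfp970 (chr2:177464492-177464741, plus strand) that have no identical partner when they are aligned.
Gm14295: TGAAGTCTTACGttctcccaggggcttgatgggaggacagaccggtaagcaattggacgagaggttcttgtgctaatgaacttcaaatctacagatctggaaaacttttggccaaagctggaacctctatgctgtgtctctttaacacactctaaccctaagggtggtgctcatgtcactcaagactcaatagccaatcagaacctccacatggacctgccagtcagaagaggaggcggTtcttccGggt
Zfp970: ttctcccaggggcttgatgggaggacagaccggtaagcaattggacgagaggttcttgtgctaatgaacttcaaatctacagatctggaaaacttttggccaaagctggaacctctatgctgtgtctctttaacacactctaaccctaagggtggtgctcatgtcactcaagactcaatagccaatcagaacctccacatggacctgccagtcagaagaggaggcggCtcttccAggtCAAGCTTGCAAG

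In the second pair, Gm14440 (chr2:175274875-175275124, plus strand) rose and Gm14326 (chr2:177957289-177957538, minus strand) did not pass. Gm14326 read 192.5, 120.9, 335.8 and 229.7 (log2 fold change 0.86, limma adjusted p = 0.127). Capitals again mark what differs.
Gm14440: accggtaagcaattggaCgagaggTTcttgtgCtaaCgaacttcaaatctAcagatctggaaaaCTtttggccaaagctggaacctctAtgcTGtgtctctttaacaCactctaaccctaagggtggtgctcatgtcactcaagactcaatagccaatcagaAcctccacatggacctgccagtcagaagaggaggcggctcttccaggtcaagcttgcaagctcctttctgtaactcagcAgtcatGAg
Gm14326: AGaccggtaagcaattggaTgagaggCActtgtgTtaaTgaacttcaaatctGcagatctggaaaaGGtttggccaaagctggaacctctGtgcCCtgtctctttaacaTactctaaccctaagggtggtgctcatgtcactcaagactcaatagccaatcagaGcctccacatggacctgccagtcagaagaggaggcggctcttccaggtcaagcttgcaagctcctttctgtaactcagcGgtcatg

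Identity was 90.1% in the first pair and 92.9% in the second. Over the 10 promoters compared in the stretch, Zfp970 included, the 45 pairs ranged from 53.1% to 97.6% with a median of 77.1%. Gm14295 and Gm14440, which both rose, were 71.4% identical to each other. Gm14322, with a log2 fold change of -0.27, was 88.1% identical to Gm14440. Whether likeness of promoters goes with the change was not tested. The letters CCAATCA, searched on both strands and picked after the sequences were seen, occur in all 10, in 29.2% of the 65 models that have a promoter entry and in 7.65% of all 27025 promoters of the table. The 65 include the models of this run that have an entry, and promoters this alike are not separate occurrences. They hold the CCAAT box, and a match of letters is no measurement of binding.

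A second run, at chr12:18387755-23969452, holds 11 models and showed no such direction. None of them passed the test (2 had an unadjusted limma p under 0.05), 4 had a log2 fold change above 0, 6 had groups that did not overlap, and the median log2 fold change was -0.23. Among all genes tested, groups did not overlap for 57.8%, 26.8% had an unadjusted limma p under 0.05 and 10.5% passed. Gm38702 came nearest, at 53.0, 42.7, 15.1 and 18.6 (log2 fold change -1.45, limma adjusted p = 0.0556). None of the 17 other genes tested there passed either, and 2 had an unadjusted limma p under 0.05. The difference between the runs was not tested.

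**Figure D3:**
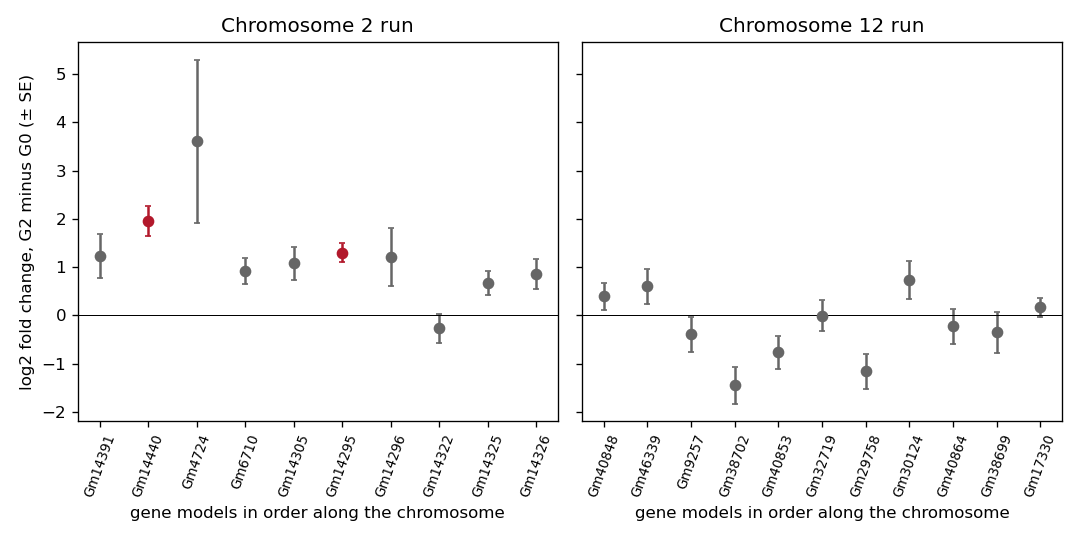
Log2 fold change (G2 minus G0) with its SE from the limma fit for each gene model of the chromosome 2 run (left, 10 models) and the chromosome 12 run (right, 11 models), in chromosome order but not to distance, red for models that rose. On chromosome 2, 9 of 10 points lie above 0, and on chromosome 12, 4 of 11 do.

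Read-through models, which span 2 adjacent named genes, did not pass. Gm20498 joins Synj2bp, a protein of the outer mitochondrial membrane, and Cox16, an assembly factor of cytochrome c oxidase, and read 101.1, 107.7, 60.5 and 87.0 (limma adjusted p = 0.302). Gm45927 joins the kinase gene Clk2 and Scamp3 and read 110.0, 183.9, 205.7 and 141.7 (limma adjusted p = 0.645). The groups overlapped for Gm45927 and did not for Gm20498. Gm20604, which ends in Moap1, read 259.2, 244.8, 202.7 and 223.8 (limma adjusted p = 0.464). Gm44504, of Slc10a3 and Ubl4a, read 51.1, 212.3, 42.4 and 123.2 (limma adjusted p = 0.686), with lines of a group further apart than the groups. None of the component genes of these models that were tested passed.

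Models tied to named genes by sequence or only by name that did not pass include Gm10698. It shares 100% of its stretches with Tmed2, a cargo receptor of the secretory pathway, and others. It read 545.9, 766.9, 438.7 and 471.1 (limma adjusted p = 0.162). Gm12657 shares 72.1% of its stretches with other genes, the histone gene H3f3a first among them, and read 245.5, 186.9, 270.3 and 308.9 (limma adjusted p = 0.257). Both had groups that did not overlap. Gm16867 shares 98.2% with Entpd4, a nucleotide phosphatase of the Golgi, and others, and read 247.4, 263.1, 212.8 and 184.7 (limma adjusted p = 0.291). Gm20594, which RefSeq also lists as Mtrnr2l, shares 4.0% of its stretches and read 95.2, 48.8, 129.1 and 201.4 (limma adjusted p = 0.098). Gm38495, listed by RefSeq as a synonym of the clathrin adaptor kinase Aak1, read 906.3, 631.8, 1118.4 and 995.1 (limma adjusted p = 0.18). The sequence of Gm38495 was not compared.

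Of the 72 models that did not pass, 39 had a log2 fold change above 0 and 33 below, and 38 lay within 0.5 of 0. The models nearest to the threshold were Gm38702, Gm46911, Gm40991, Gm43305 and Gm6710. Gm46911 read 1142.9, 1322.6, 1686.2 and 2027.3 (limma adjusted p = 0.0578). Gm40991 read 6649.4, 7609.4, 10723.3 and 10081.5 (limma adjusted p = 0.0581), and Gm6710 read 60.9, 68.1, 135.1 and 112.4 (limma adjusted p = 0.0766). In all 5 the groups did not overlap, as was so for 57.8% of all genes tested.

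Other models with a high mean count did not pass. Gm29779 read 7232.7, 6633.2, 6283.9 and 4966.5 (limma adjusted p = 0.264). Gm39972 read 4002.2, 4350.7, 5707.1 and 4685.9 (limma adjusted p = 0.236), and the pseudogene Gm21811 read 2755.2, 1833.5, 3201.0 and 2447.6 (limma adjusted p = 0.406). Only in Gm21811, of these 3, did the groups overlap.

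Lines of 1 group differed most in Gm21596, Gm4724 and Gm6958. Gm21596 is a processed copy of Hmgb1, a chromatin protein, and shares 82.0% of its stretches with Hmgb1 and others. It read 0.0, 271.2, 238.0 and 288.4, so G0 line 75 alone was without counts. Its log2 fold change of 3.99 (SE 2.19, limma adjusted p = 0.287) was -0.05 without that line.

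At the threshold, Gm8909 and Gm527 lay just inside with deposited means of 7.310 and 7.322, and Gm46306 and Gm5113 just outside with 7.298 and 7.281. Gm8909, a class I histocompatibility-like gene, read 31.4, 45.7, 16.1 and 26.4, and Gm527 read 31.4, 19.3, 41.3 and 29.3. Gm46306 read 17.7, 25.4, 41.3 and 30.3, and Gm5113 read 22.6, 14.2, 41.3 and 33.2. No model had both libraries of a group at 0, and 110 of the 112 had a count in every library.

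For the 90 models with a position, the nearest named gene on each side and every overlapping one came to 161 genes, of which 125 were tested. Of these, 5 changed, or 4.0%, against 10.5% of all genes tested. Zfp970, Setbp1 and Fam189b rose, and Nat8l and Pcsk6 fell. Around the 30 changed models with a position, 42 neighbours were tested and 3 changed.

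Both the model and its neighbour changed in 3 pairs. Gm1673 and Nat8l fell together and Gm14295 and Zfp970 rose together. Gm36718 fell while Setbp1, a gene known for binding the SET oncoprotein, rose (limma adjusted p = 0.0271), far away on chromosome 18. Over 149 pairs the log2 fold changes had a Pearson r of 0.309, given as a description because pairs share libraries and some share a neighbour. This r includes the far-out pair of Gm1673 and Nat8l and was not computed without it.

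**Figure D4:**
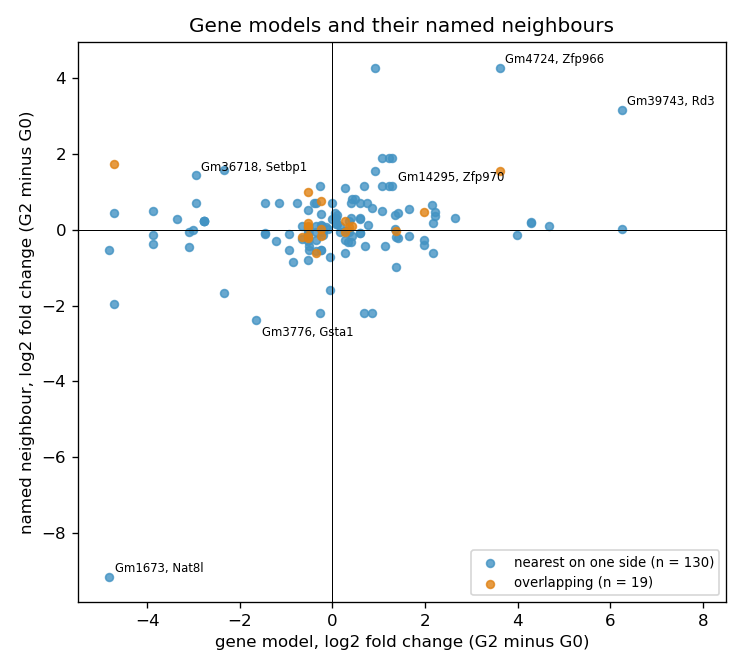
Log2 fold change (G2 minus G0) of the named neighbour against that of the gene model, with 1 point per pair that could be tested, blue for the nearest gene on 1 side (n = 130) and orange for a gene that overlaps the model (n = 19). Most points lie along the horizontal line at 0 and the pair of Gm1673 and Nat8l lies at the lower left.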

How the data were processed

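RNA of 4 colonoid lines was sequenced, 2 of G0 and 2 of G2. The submitters' processing notes list HISAT2 2.1.0, DESeq2 1.32.0 and StringTie 2.1.1, beside bcl2fastq 2.20.0, R 3.5.2 and the build mm10. Which annotation, strand setting and filters they used is not given in the sources used here. One table of log2-scale values was deposited by the authors, with a floor of 6.508 in every library, as a variance-stabilizing transformation gives to a count of 0. Inverting it, with 1 size factor per library (0.9844 to 1.0231), made 100% of values whole within 0.001. StringTie estimates coverage, so these whole numbers can be rounded estimates, and no count model was run. A variance-stabilized scale had not been foreseen in the plan.

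limma 3.58.1 in R 4.3.3 tested log2(normalized count + 1), two-sided, with an intensity trend and the group as only term, on genes with a mean of at least 1, with Benjamini-Hochberg adjustment and a threshold of 0.05. On simulated data the test recovered 92% of 2-fold and 100% of 4-fold changes over 14006 genes, with 2 false calls of 194. The simulation gave every gene the same small dispersion and changed few genes, none of very low mean. Several models here had lines of a group far apart, so these rates need not hold for the real libraries. Counting intervals are exact, at 95%, and cover counting error only, since copies made by PCR are not independent molecules. Positions came from RefSeq on GRCm38.p6 and GENCODE M21, and 50-base stretches from the GENCODE transcripts of 63 models.

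Named with values were the 12 largest changes in each direction, the 8 highest means, models at the edge of the mean of 7.3, the 5 nearest to the threshold, the 3 with the widest spread within a group and those with another name. The other changed models, the read-through and copied models, Gm20594, Gm38947, Gm20684, Gm46735, Gm14149 and genes of the chromosome 2 run were named after their values were seen. The members and lists were chosen with earlier results of these data known. Alternatives were other pseudocounts and filters, the deposited values, median centring, no trend, a replicate block, other cuts on the mean and leaving out each library.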

Additional observations from a re-analysis of the deposited data

How the results depend on the processing

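The counts of models that rose and fell (23 and 17) and of changed neighbours (5) stayed within 1.5 times under pseudocounts of 0.5 and 5, a mean of at least 5, the deposited values as they stand and median centring. Without a filter on low values they were 8, 1 and 1, and without the intensity trend 15, 10 and 2. Without any single library each count ranged from 0 to 0, and the smallest limma adjusted p among the 40 changed models was 0.115 to 0.137. All 40 kept their direction under every one of these settings. With a mean of at least 8.0 for the models, 6 fell. In an alternative chosen after seeing the data, without models that share at least 80% of their stretches, 11 fell. With the replicate block 40 rose, 24 fell and 27 neighbours changed, where 3503 of all 13981 genes did. The numbers pair the libraries only by name, with a correlation of 0.109 between the deviations of same-numbered libraries from their group means. This is a single value, since with 2 lines per group the deviations of the lines mirror each other. The cause of these shifts was not tested. Gm21596 turned to a log2 fold change of -0.05 without G0 replicate 1. With 2 lines per group and 16545429 to 17901744 counts per library, models of few counts are limited by both.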
